A study of Mus musculus with 8 samples.

Results

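The 10 genes described here, Cnp, Car2, Qdpr, Enpp2, Gpr37, Hapln2, Tmem88b, Ndrg1, Gsn and Ermn, are enzyme, surface, cytoplasmic and cytoskeletal genes of the mature oligodendrocyte. They were taken by symbol from the RefSeq table of GRCm38, out of 21887 protein-coding genes on chromosomes 1 to 19, X and Y, and all 10 matched. A peak was given to a gene when its centre lay in the gene span or within 5 kb of it. Binding was read in 6 peak lists from chromatin immunoprecipitation with sequencing (ChIP-seq). The differentiated cells were oligodendrocytes grown from neural stem cells of the FvB/C57BL6 hybrid strain at passage 7, with ectopic expression of PPARb that the titles mark as HA-PPAR. Their medium held B-27, GlutaMAX-I at 2 mM, IGF-1 at 100 ng/mL and the thyroid hormone T3 at 50 ng/mL. They gave libraries for Qki-5, PPARb, HA, RNA polymerase II (Pol II) and input, and all 5 carried the introduced receptor. The isolated cells were oligodendrocytes captured from C57BL6 mouse brain with O4 magnetic beads, at passage 0, and gave libraries for Qki-5, PPARb and input. Ages, the number of mice, and whether the neural stem cells were 1 clone are not given in the sources used here. Each group had 1 library, so no value has a replicate error and no difference between libraries was tested.

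Oligodendrocytes wrap axons in myelin, and in the mature cell enzymes, surface proteins and cytoskeletal proteins are made alongside the structural myelin proteins. Qki-5 is the nuclear isoform of Quaking, an RNA-binding protein needed for myelination, and PPARb is a lipid-sensing nuclear receptor that binds DNA together with an RXR partner. Pol II is the enzyme that transcribes protein-coding genes. A ChIP-seq peak shows where DNA was recovered with an antibody, directly or through other proteins, and does not measure the amount of RNA made.

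Library depth ranged from 12624236 to 24880851 tags, and the lists held between 1393 and 30179 peaks. Tags in peaks made up 0.116% of the isolated-cell PPARb library, against 0.849% for isolated-cell Qki-5 and 1.39% to 4.62% in the differentiated-cell libraries. Its depth, 18389111 tags, was above that of differentiated-cell Qki-5 (18078176) and HA (12624236). A missing peak there thus means only that none was called in a library with few tags in peaks. Peak height is the authors' tag count per 10000000 tags. Intervals beside heights are 95% exact Poisson intervals and cover counting error only. Of 39 other mature oligodendrocyte genes, 12 had a Pol II peak in differentiated cells, against 47.5% of all protein-coding genes. Among the 39, Mag and Mog had none and Mbp had 1 of 6.83. Plekhb1 had a peak of 16.1, and Olig1, a lineage transcription factor gene on the same list, a peak of 22.5. At least 1 Pol II peak was found at 8 of 10 astrocyte, 6 of 10 neuron and 5 of 10 precursor genes. Of 10 microglia and 10 endothelial genes, 1 each had a Pol II peak. In the isolated-cell Qki-5 list 29 of the 39 had a peak (35.7% of all protein-coding genes). So did 7 of 10 endothelial, 5 of 10 precursor and 1 of 10 microglia genes, and none of 10 astrocyte or 10 neuron genes. The part of other cell types in the results below was not tested.

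The promoter table of RefSeq, build GRCm38.p6, matched 7 of the 10 genes with 9 annotated starts, 3 of them at Gsn. Ndrg1, Car2 and Enpp2 are not among them. The 250 bases before the start are printed for 5 genes that show the range of binding at starts. Hapln2 and Gpr37 had a Qki-5 peak of isolated cells there and no differentiated-cell peak. Qdpr had Qki-5 in both cell kinds, Cnp had the tallest Pol II peak of the 10 genes, and Ermn had no peak. Sequences run 5′ to 3′ on the gene's own strand, and the base after the last letter is the start. Capitals mark the matches, on either strand, to the motifs listed after the sequences.
Hapln2, chr3:88027512-88027761, minus strand: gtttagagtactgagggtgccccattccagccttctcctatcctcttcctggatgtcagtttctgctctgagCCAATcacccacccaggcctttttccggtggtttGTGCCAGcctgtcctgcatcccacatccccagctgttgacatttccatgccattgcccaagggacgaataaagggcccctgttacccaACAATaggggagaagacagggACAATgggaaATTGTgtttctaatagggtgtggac
Gpr37, chr6:25689981-25690230, minus strand: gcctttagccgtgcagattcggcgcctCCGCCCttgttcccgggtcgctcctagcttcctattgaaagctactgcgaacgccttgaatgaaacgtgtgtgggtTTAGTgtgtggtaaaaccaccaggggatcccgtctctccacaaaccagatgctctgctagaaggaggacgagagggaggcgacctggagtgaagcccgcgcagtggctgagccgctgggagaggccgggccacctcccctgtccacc
Qdpr, chr5:45450230-45450479, minus strand: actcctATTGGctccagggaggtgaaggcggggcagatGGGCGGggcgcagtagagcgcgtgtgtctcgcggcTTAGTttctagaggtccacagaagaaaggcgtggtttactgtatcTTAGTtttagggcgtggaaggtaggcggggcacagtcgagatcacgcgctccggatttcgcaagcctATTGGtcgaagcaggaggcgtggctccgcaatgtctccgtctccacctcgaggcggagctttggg
Cnp, chr11:100574689-100574938, plus strand: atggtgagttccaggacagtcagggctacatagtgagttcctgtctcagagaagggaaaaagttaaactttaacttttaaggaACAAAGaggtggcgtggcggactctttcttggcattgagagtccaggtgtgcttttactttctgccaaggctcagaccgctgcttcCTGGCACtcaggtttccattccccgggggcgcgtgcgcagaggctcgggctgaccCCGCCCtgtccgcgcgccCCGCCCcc
Ermn, chr2:58052865-58053114, minus strand: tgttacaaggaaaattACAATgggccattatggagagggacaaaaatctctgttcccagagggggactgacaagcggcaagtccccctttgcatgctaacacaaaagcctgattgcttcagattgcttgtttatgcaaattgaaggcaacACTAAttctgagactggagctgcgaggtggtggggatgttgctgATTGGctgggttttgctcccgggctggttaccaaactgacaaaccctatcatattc

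The letters searched included the GC box, GGGCGG, which was found before a start of 4 of the 7 genes, Cnp, Gpr37, Gsn and Qdpr. By window it was in 6 of the 9, against 32.7% of the 32851 windows of the same length in the table. The CCAAT box, CCAAT, was found at Ermn, Gsn, Hapln2 and Qdpr, in 5 of the 9 windows, and in 33.8% of all windows. For the other motifs found, the genes and the windows with a match are equal in number. Of 2 SOX elements, ACAAT was found at Ermn, Hapln2 and Tmem88b and in 27.7% of all windows, and ACAAAG at Cnp and in 16.5%. CTGGCAC, an element of the oligodendrocyte factor MYRF, was found at Cnp and Hapln2 and in 4.19% of all windows. ACTAA, the DNA letters of the core of the Quaking RNA motif, was found at Ermn, Gpr37 and Qdpr and in 23.0% of all windows. It was on the gene's own strand at Ermn, and on the opposite strand at Gpr37 and Qdpr. All these matches lie before the annotated start. Hapln2 held 3 of the 5 ACAAT matches, between positions -56 and -21 from the start, and its CTGGCAC match at -144 to -138. Of those 250 letters the isolated-cell Qki-5 peak covered the 147 nearest to the start, which hold all 4 matches. The nuclear receptor element AGGTCA was in none of the 9 windows and in 14.0% of all, and its direct repeat of the DR1 type, which contains it, in none and in 0.0335%. The E-box letters CACGTG and the TATA-box letters TATAAA were in none of the 9, and in 6.02% and 12.4% of all windows. No other motif searched contains another. A match describes letters and is not a binding site.

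The 9 windows differed in CpG content. Qdpr had 21 CpG dinucleotides, Gpr37 16, the first start of Gsn 15, Cnp 13 and the third start of Gsn 12, against a median of 6 over the table. Ermn and Tmem88b had 3 each, and Hapln2 and the second start of Gsn had 2 each. Peaks lay over part of the letters at Qdpr, Gpr37, Cnp, Hapln2 and the first start of Gsn, and over none at Ermn, Tmem88b and the 2 other starts of Gsn. The isolated-cell Qki-5 peak covered 147 of the 250 letters at Hapln2, 66 at Gpr37 and 200 at Qdpr. At Qdpr the differentiated-cell Qki-5 peak also covered 200 letters. At Cnp the differentiated-cell Qki-5, HA and Pol II peaks covered 126, 65 and 45 letters.

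**Figure D1:**
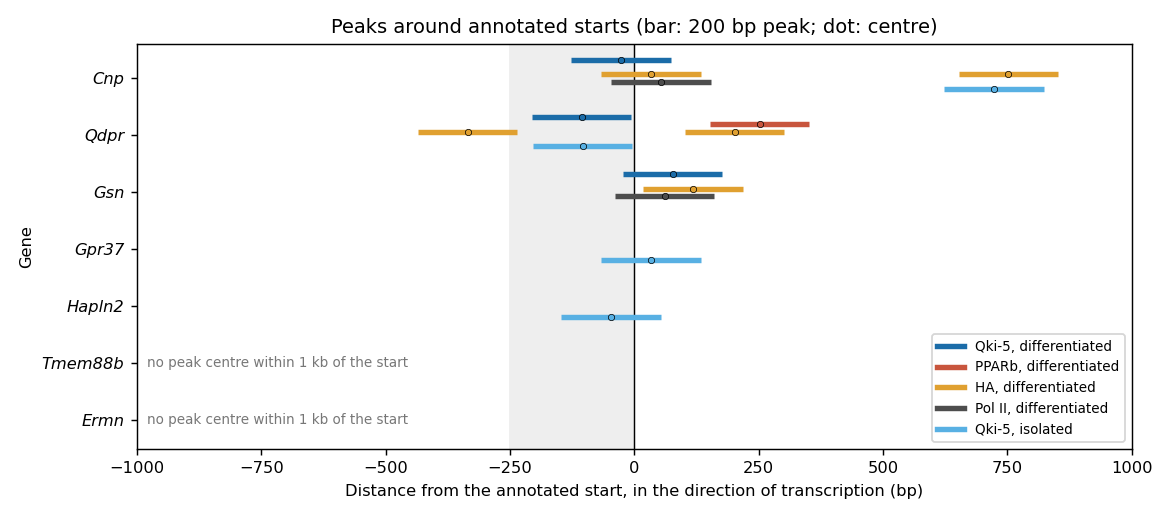
Peaks within 1 kb of an annotated start, for the 7 genes with a start in the promoter table. The x axis is the distance from the start in bp in the direction of transcription, bars are 200 bp peaks coloured by library, dots are their centres and the grey band is the 250 bases before the start. At Gpr37 and Hapln2 only the isolated-cell Qki-5 bar is present, and at Qdpr the 2 Qki-5 bars lie at almost the same place.

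Within 1 kb of an annotated start, Qki-5 of isolated cells had a peak at 4 of the 7 genes (28.6% of 17492 protein-coding genes with a start in the table), Cnp, Qdpr, Gpr37 and Hapln2. In differentiated cells Qki-5 and HA each had one at 3, Cnp, Qdpr and Gsn (49.4% and 49.8% of all such genes). Pol II had one at 2, Cnp and Gsn (39.4%), PPARb at 1, Qdpr (45.2%), and PPARb of isolated cells at none (5.66%).

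Over the whole windows 9 of the 10 genes had a peak in at least 1 list, and Ermn had none (65.7% of all protein-coding genes had one). In differentiated cells Qki-5 was at 8 genes (61.2%), PPARb at 9 (57.3%), HA at 9 (60.6%) and Pol II at 5 (47.5%). In isolated cells Qki-5 was at 9 (35.7%) and PPARb at none (7.57%). Among the 15359 protein-coding genes with spans between 4.28 and 114 kb, the range of the 10 genes, the shares were 67.5%, 63.3%, 66.9%, 52.6%, 40.3% and 8.67% in the same order. Qki-5, PPARb and HA of differentiated cells all had a peak at 8 of the 10 genes (54.0%). Of these 8, 3 had no Pol II peak, Qdpr, Enpp2 and Gpr37. Among the 11814 protein-coding genes with those peaks, 2024 had no Pol II peak, which is 9.25% of all protein-coding genes. The Pol II count was thus near its background, and the isolated-cell Qki-5 count was the one farthest above its background. The median span was 16.6 kb for the 10 genes and 17.2 kb for all protein-coding genes. Peaks numbered 15, 14, 20 and 8 for Qki-5, PPARb, HA and Pol II of differentiated cells and 11 for Qki-5 of isolated cells. Per 100 kb of window these were 3.81, 3.55, 5.08, 2.03 and 2.79 peaks, against 1.90, 1.68, 1.93, 0.958 and 0.628 over the windows of all protein-coding genes. Those windows include genes longer than 114 kb, and the densities were not matched for span. The differences are therefore not read as enrichment. Most of the 68 peaks, 54, had their centre inside a gene span. Within 1 kb of either end of a span lay 6 of the 15 Qki-5, 3 of the 14 PPARb, 9 of the 20 HA and 5 of the 8 Pol II peaks of differentiated cells, and 7 of the 11 Qki-5 peaks of isolated cells. Over all protein-coding genes these shares were 44.0%, 44.5%, 45.0%, 65.9% and 68.2%, and 72.6% for PPARb of isolated cells, which had no peak here. Most of the 14 PPARb peaks were thus away from the ends, as were most PPARb peaks over all protein-coding genes. Within 2 kb the count of 3 rose to 5, and peaks this few do not describe the genes as a group. The RefSeq table used here gives no exons, so introns and exons were not told apart.

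**Figure D2:**
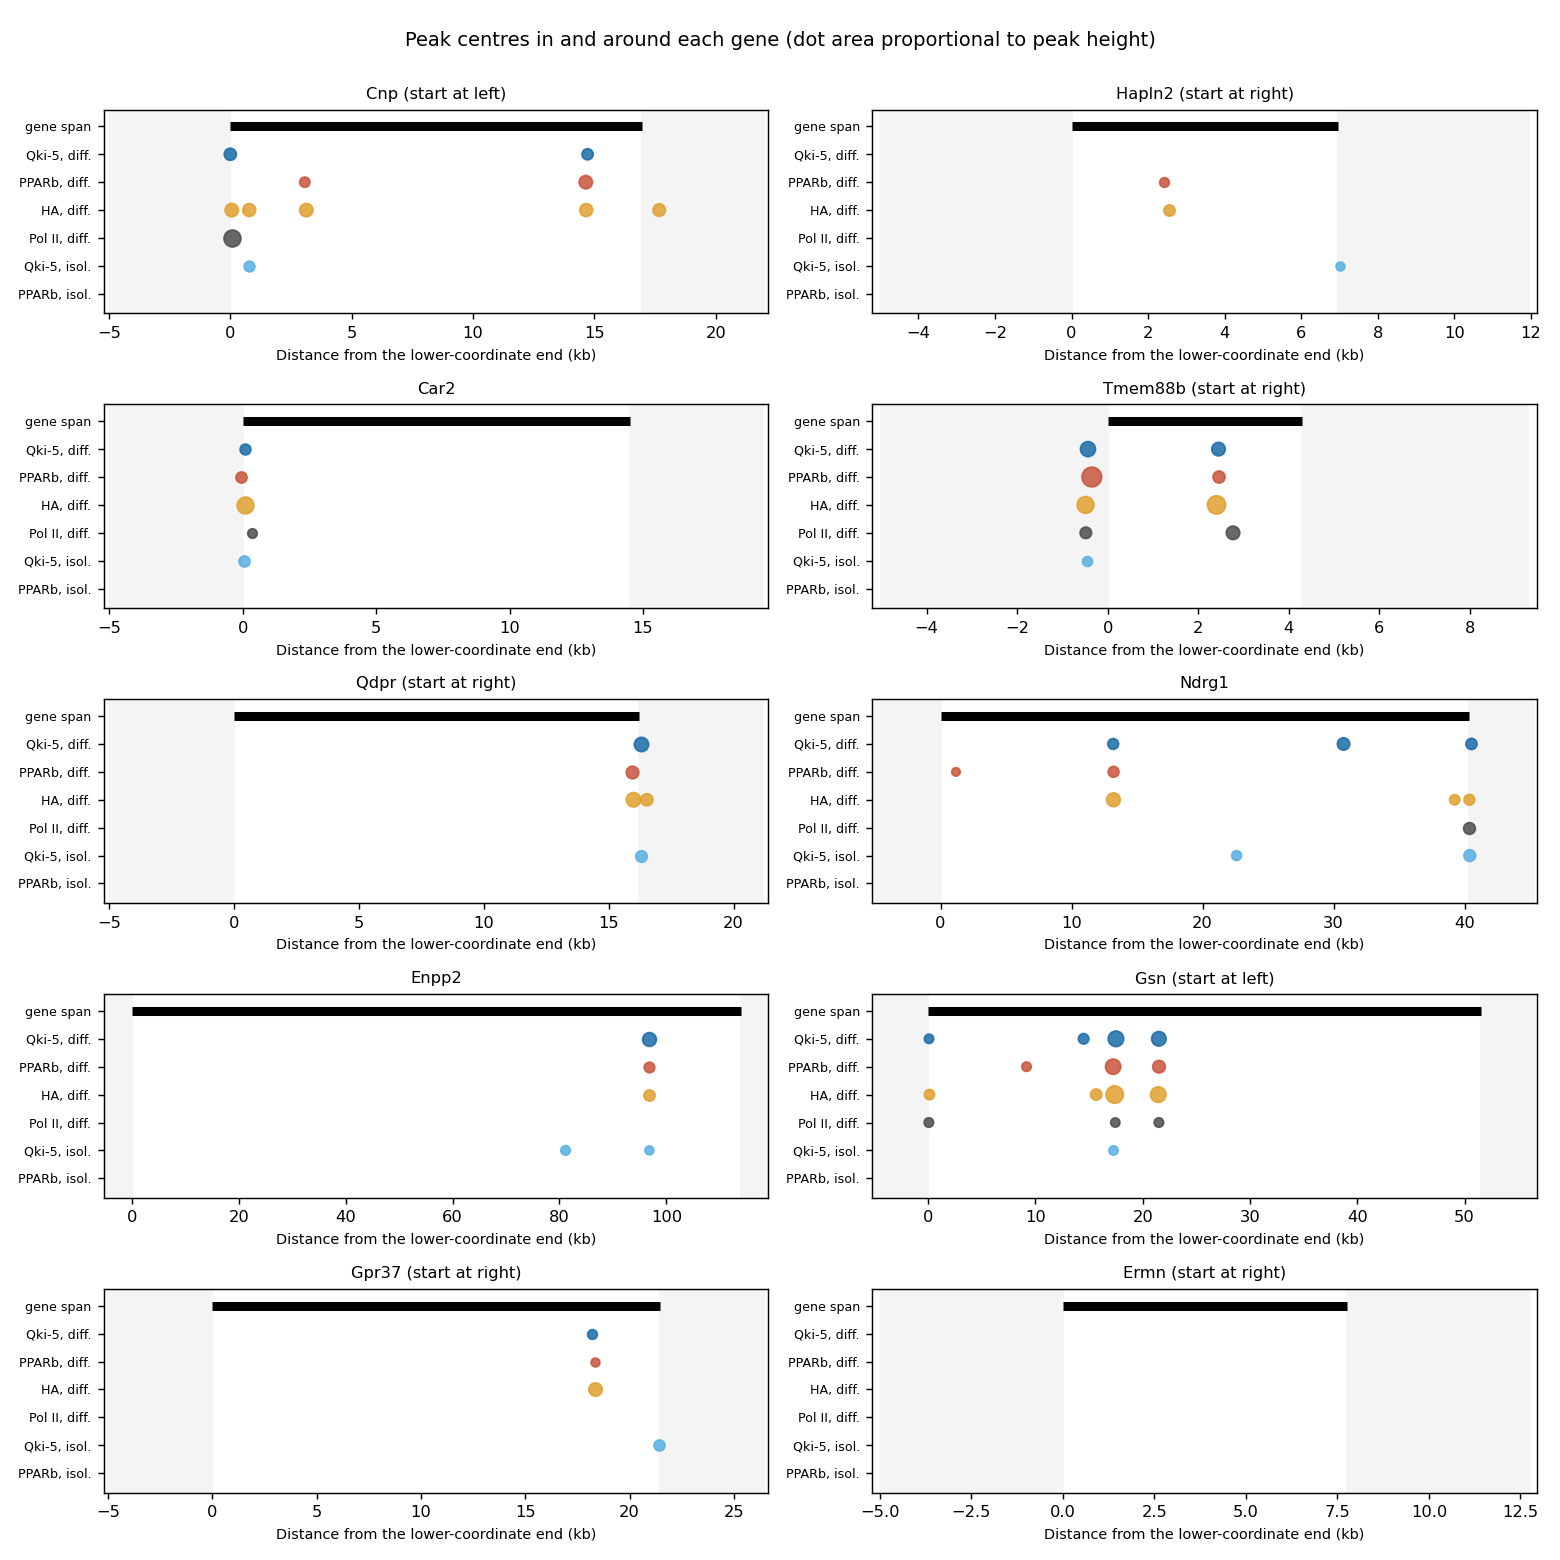
Peak centres of the 6 lists along each of the 10 genes. The x axis is the distance in kb from the end of the span with the lower coordinate, the black bar is the span, the grey margins are the 5 kb on each side, and the area of a dot is proportional to peak height. The dots of the differentiated-cell Qki-5, PPARb and HA lists stack at 1 place in Enpp2 and Gpr37, and the Ermn panel is empty.

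Among the enzymes, Cnp (gene ID 12799, chromosome 11, 100574909 to 100591875) encodes the cyclic nucleotide phosphodiesterase of non-compact myelin. Its Pol II peak, 84 bp inside the lower end of the span, stood at 21.7 (16.3 to 28.3) and ranked 507 of 13270, the highest percentile of Pol II at the 10 genes. The differentiated-cell Qki-5 peak beside it stood at 11.1 (6.76 to 17.1) and the HA peak at 13.5 (7.84 to 21.6), with no PPARb peak at that site. The Qki-5 peak of isolated cells, at 8.70 (5.24 to 13.6), lay 750 bp from the differentiated-cell one and overlapped an HA peak of 12.7. PPARb was found farther inside the gene, at 8.01 with an HA peak of 13.5, 3.07 kb from the lower end, and at 13.4 (9.01 to 19.1) with HA at 12.7 and Qki-5 at 9.40, 2.32 kb from the upper end. That last site, and an HA peak of 11.9 beyond the upper end, also lie in the span of Dnajc7, a chaperone gene that overlaps Cnp. At Cnp the Pol II peak was thus at the start, and the peaks of the PPARb antibody were at the 2 sites deeper in the gene. HA, the tag named for the introduced receptor, had peaks at the start and at both deeper sites. The missing PPARb call at the start therefore does not show that the receptor was absent there.

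Car2 (gene ID 12349, chromosome 3, 14886269 to 14900770) encodes a cytosolic carbonic anhydrase, which interconverts carbon dioxide and bicarbonate. All its peaks lay within 338 bp of the lower end of the span. Qki-5 stood at 8.85 (5.06 to 14.4) in differentiated cells and at 9.16 (5.60 to 14.1) in isolated cells, with centres 17 bp apart. PPARb stood at 9.35 (5.78 to 14.3), HA at 21.4 (14.1 to 31.1) and Pol II at 6.83 (3.98 to 10.9). HA was high in its list, at the 83.7th percentile, and the 4 other peaks lay between the 27.9th and the 51.5th. Car2 and Qdpr were the 2 genes of the 9 with any peak whose peaks all lay within 1 kb of 1 end.

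Qdpr (gene ID 110391, chromosome 5, 45434032 to 45450229) encodes a reductase that regenerates tetrahydrobiopterin, a cofactor of amine synthesis. Its Qki-5 peaks stood at 15.5 (10.3 to 22.4) in differentiated cells and 10.1 (6.32 to 15.3) in isolated cells, 106 and 104 bp before the start, with centres 2 bp apart. PPARb at 12 (7.92 to 17.5) and HA at 15.8 (9.68 to 24.5) lay on the other side of the start, 252 and 202 bp into the gene, and a further HA peak of 11.1 lay 335 bp before it. The Qki-5 and PPARb peaks of Qdpr did not overlap, although both were within 1 kb of the same start. No Pol II peak was called at Qdpr, and the nearest lay 43.3 kb from its span.

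Enpp2 (gene ID 18606, chromosome 15, 54838901 to 54952789) encodes autotaxin, a secreted enzyme that makes lysophosphatidic acid. It is the longest of the 10 genes, and no peak lay near either of its ends. A site 17.1 kb inside the upper end held Qki-5 at 14.4 (9.39 to 21.1), PPARb at 8.46 (5.09 to 13.2) and HA at 9.51 (4.91 to 16.6) in differentiated cells, and Qki-5 at 5.95 (3.17 to 10.2) in isolated cells. Their folds over input were low, at 6.82, 4.01, 4.51 and 4.85 in the same order, where the authors required 4. None of these peaks would pass at 8-fold. A second Qki-5 peak of isolated cells, at 6.87 (3.85 to 11.3), lay 15622 bp from that differentiated-cell Qki-5 peak, with no peak of another list. No Pol II peak was called in the window.

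Among the surface and matrix genes, Gpr37 (gene ID 14763, chromosome 6, 25668523 to 25689980) encodes a G protein-coupled receptor of myelinating oligodendrocytes. Its binding lay at different places in the 2 cell kinds. In differentiated cells Qki-5 at 7.19 (3.83 to 12.3), PPARb at 5.79 (3.08 to 9.89) and HA at 13.5 (7.84 to 21.6) shared a site 3.10 to 3.24 kb inside the gene. In isolated cells Qki-5 stood at 9.16 (5.60 to 14.1) 34 bp after the start, 3202 bp from the differentiated-cell Qki-5 peak. The differentiated-cell Qki-5 and PPARb peaks were low in their lists, at the 18.9th and 9.65th percentiles.

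Hapln2 (gene ID 73940, chromosome 3, 88020558 to 88027511) encodes a link protein that joins hyaluronan and proteoglycans at nodes of Ranvier. Its isolated-cell Qki-5 peak stood at 5.95 (3.17 to 10.2), 47 bp before the start, and rested on 13 tags, the calling threshold of that list being 13. In differentiated cells no Qki-5 peak was called in the window, and the nearest to the isolated-cell peak lay 15531 bp from it. PPARb at 7.12 (4.07 to 11.6) and HA at 9.51 (4.91 to 16.6) overlapped inside the gene, over 4 kb downstream of the start. Hapln2 was the only 1 of the 10 genes with PPARb and HA but no Qki-5 in differentiated cells.

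Tmem88b (gene ID 320587, chromosome 4, 155781591 to 155785874) encodes a transmembrane protein and has the shortest span of the 10 genes. It had the tallest PPARb peak among them, at 29.4 (22.7 to 37.4), rank 25 of 26406. That peak lay beyond the end of the gene, 4635 bp downstream of its start, and not at its promoter. At the same site stood Qki-5 at 17.1 (11.7 to 24.3), HA at 21.4 (14.1 to 31.1) and Pol II at 10 (6.50 to 14.8), and Qki-5 of isolated cells at 7.33 (4.19 to 11.9). The nearest other gene in the table, Vwa1, was 6546 bp from the PPARb centre. A second site inside the gene, 1.82 to 1.88 kb after the start, held Qki-5 at 13.8, PPARb at 11.1 and HA at 25.3 (17.3 to 35.8), with a Pol II peak of 13.7 (9.46 to 19.1) beside it. No peak centre lay within 1 kb of the annotated start.

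Of the cytoplasmic and cytoskeletal genes, Ndrg1 (gene ID 17988, chromosome 15, 66929318 to 66969641) encodes a cytoplasmic protein whose loss causes a demyelinating neuropathy. At its upper end Pol II stood at 10.4 (6.83 to 15.3), HA at 8.71 (4.35 to 15.6), Qki-5 at 9.40 (5.48 to 15.1), and Qki-5 of isolated cells at 10.5 (6.68 to 15.8), the tallest isolated-cell peak of the 10 genes. PPARb had no peak there, and this end also adjoins the lncRNA gene Gm2895, in whose span the HA and both Qki-5 centres lay. PPARb at 8.90 (5.44 to 13.7) was found 13.2 kb from the lower end, with HA at 14.3 (8.45 to 22.5) and Qki-5 at 8.85 (5.06 to 14.4). The remaining peaks stood alone: Qki-5 at 11.6, PPARb at 5.34, HA at 7.92, and Qki-5 of isolated cells at 7.33. As at Cnp, the Pol II peak overlapped an HA peak but no peak of the PPARb antibody, whose peaks were at other sites of the gene.

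Gsn (gene ID 227753, chromosome 2, 35256359 to 35307902) encodes gelsolin, which severs actin filaments. Its strongest site, 17.2 to 17.5 kb inside the span, had peaks in 5 lists, with Qki-5 at 18.3 (12.6 to 25.6), PPARb at 17.8 (12.7 to 24.2), HA at 23.0 (15.4 to 33.0), Pol II at 6.43 (3.68 to 10.4) and Qki-5 of isolated cells at 6.41 (3.51 to 10.8). The PPARb peak ranked 1546 of 26406. About 4 kb farther in, Qki-5 at 16.0 (10.7 to 23.0), PPARb at 12 (7.92 to 17.5), HA at 18.2 (11.5 to 27.3) and Pol II at 6.83 met again. Both sites lie between the second and the third annotated start, and the first partly in the lncRNA gene Gm39795. At the first start Qki-5 stood at 6.64 (3.43 to 11.6) and HA at 7.92 (3.80 to 14.6), lower than at both inner sites, and PPARb had none. Pol II stood at 6.83 (3.98 to 10.9) there, about as high as at the inner sites. Gsn thus had its tallest Qki-5, PPARb and HA peaks inside the gene, away from the starts in the table.

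Ermn (gene ID 77767, chromosome 2, 58045115 to 58052864) encodes ermin, an actin-binding protein of late oligodendrocytes, and stood apart by the lack of any peak. The nearest differentiated-cell Qki-5 peak, 7.19 high, lay 53.8 kb from its span, and the nearest PPARb, HA and Pol II peaks 325, 305 and 325 kb. The nearest Qki-5 peak of isolated cells lay 514 kb away. Of all protein-coding genes, 34.3% had no peak in any list, so this is a common state.

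**Figure D3:**
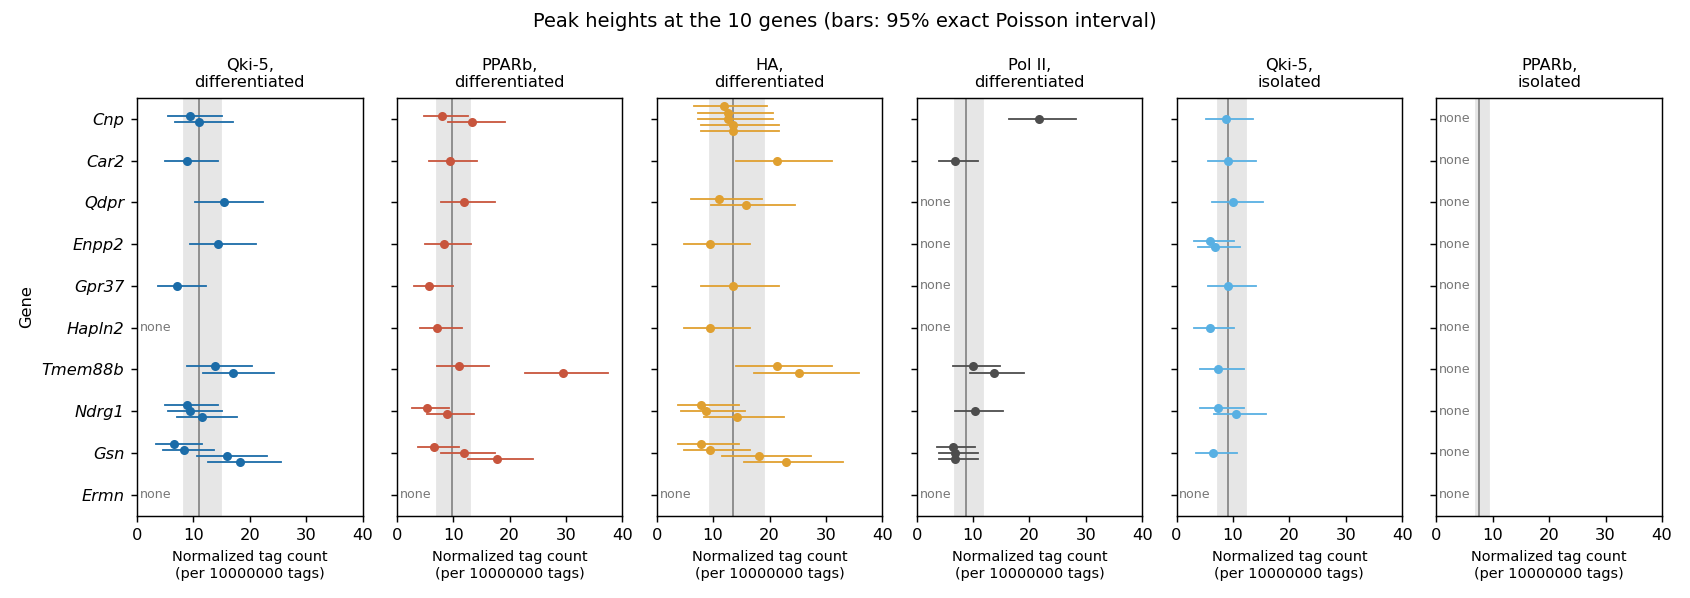
Heights of all peaks at the 10 genes in the 6 lists, in tags per 10000000 tags on the x axis, with 95% exact Poisson intervals as bars. Grey bands run from the lower to the upper quartile of each whole list and the grey line is its median. Tmem88b stands out in the PPARb panel at 29.4 and Cnp in the Pol II panel at 21.7, while the isolated-cell Qki-5 peaks sit between 5.95 and 10.5.

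The median height at the 10 genes in differentiated cells was 11.1 (Qki-5), 9.13 (PPARb), 13.1 (HA) and 8.42 (Pol II), against 11.6, 9.79, 14.3 and 9.24 over peaks in the windows of all protein-coding genes. In isolated cells it was 7.33 for Qki-5 against 9.62. There, 2 of the 11 peaks were above the median of the list, at Ndrg1 and Qdpr, and those of Car2 and Gpr37 stood at it. At or below the lower quartile of that list, 7.33, lay 6 of the 11. Gene by gene, the tallest peak passed the median of all genes with a peak in differentiated cells at 2 genes (Qki-5), 3 (PPARb), 3 (HA) and 2 (Pol II), and at none of the 9 with Qki-5 in isolated cells. Ranked by fold over input, that last number was 6 of the 9, and the numbers for PPARb and Pol II of differentiated cells were 5 and 4. By summed height it was 2 of the 9, and 5 for HA. The peaks counted are those that passed the authors' threshold, so lower binding is not seen.

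Overlapping peaks formed 31 sites at the 9 genes, of which 14 had a peak of 1 list alone. All 4 differentiated-cell libraries met at 3 sites, 1 at Tmem88b and 2 at Gsn. Of the 15 Qki-5 peaks of differentiated cells, 8 overlapped PPARb, 12 HA and 5 Pol II (66.8%, 68.5% and 36.4% of all Qki-5 peaks near protein-coding genes). Of the 14 PPARb peaks, 8 overlapped Qki-5 and 12 HA (75.6% and 75.0%). Only 2 of the 14, at Tmem88b and the inner of the Gsn sites, directly overlapped Pol II (40.6%). At the other Gsn site the PPARb peak ended at 35273698 and the Pol II peak began at 35273699, and an HA peak joined them. At Car2 PPARb lay 52 bp outside and Pol II 338 bp inside the same end. Inside Tmem88b they lay 1823 and 1515 bp after the start. A looser distance was not counted for PPARb with Pol II, so the low overlap does not show that they were apart. Of the 8 Pol II peaks, 5 overlapped Qki-5 and 6 HA (72.4% and 74.6%), and 2 overlapped PPARb (71.3%). Of the 20 HA peaks, 12 overlapped Qki-5, 12 PPARb and 6 Pol II (67.5%, 65.3% and 37.0%). Counts of this size are too small for a statement about the genes as a group. These lists share 1 input library, and peaks of 1 gene are not independent of each other.

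Binding of Qki-5 in the 2 cell kinds was at overlapping sites in 5 genes, Car2, Enpp2, Ndrg1, Qdpr and Tmem88b. These held 5 of the 11 isolated-cell Qki-5 peaks (73.4% of all isolated-cell Qki-5 peaks near protein-coding genes overlapped a differentiated-cell one), and 5 of the 15 differentiated-cell peaks (24.2%). At Gsn the isolated-cell peak lay 249 bp from the differentiated-cell Qki-5 peak and overlapped PPARb, HA and Pol II peaks. At Cnp it overlapped HA alone. In all, 4 of the 11 isolated-cell peaks overlapped PPARb (68.5%), 6 HA (69.1%) and 3 Pol II (48.2%). The other 4 isolated-cell peaks, 1 each at Enpp2, Gpr37, Hapln2 and Ndrg1, overlapped no peak of any other list. The 2 Qki-5 lists were called against different inputs, and cell kind, strain and introduced PPARb cannot be told apart. At the level of whole genes, 8 of the 10 had Qki-5 in both cell kinds (34.5% of all protein-coding genes), and Hapln2 had it in isolated cells alone (1.17%).

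The presence of peaks sorted the 10 genes into 4 patterns. Cnp, Car2, Tmem88b, Ndrg1 and Gsn had a peak in all lists but PPARb of isolated cells, a pattern shared by 5004 genes (22.9%). Those 5 lists had a peak, with or without the sixth, at 29.1% of all genes and 33.0% of those in the span range. Qdpr, Enpp2 and Gpr37 had the same without Pol II, as did 684 genes (3.13%). Hapln2 had PPARb and HA of differentiated cells and Qki-5 of isolated cells, as did 26 genes (0.119%), and Ermn had none, as did 7505. A list of 39 other mature oligodendrocyte and myelin genes had Qki-5 of isolated cells at 29 genes (35.7% of all protein-coding genes). In differentiated cells Qki-5 was at 22 of them (61.2%), PPARb at 22 (57.3%) and HA at 23 (60.6%). These differentiated-cell counts were not above the shares over all genes. PPARb of isolated cells was at 7 (7.57%). Among the tall Qki-5 peaks of isolated cells at these genes were those of Josd2 and Sirt2, a protein deacetylase, at 15.6 and 15.1, Adamts4, a matrix protease, at 13.3, and Enpp6 and Nfasc at 11.5. Peaks in all 6 lists were found at Mbp, Cldn11, S1pr5 and Olig1. Nfasc and Plekhb1 had 5 lists, Plekhb1 with the tallest HA peak of these named genes, at 45.9. PPARb of isolated cells, with no peak at the 10 genes, thus had peaks at other genes of the same cell type, among them Olig1 at 10.3 and Mbp at 8.70.

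**Figure D4:**
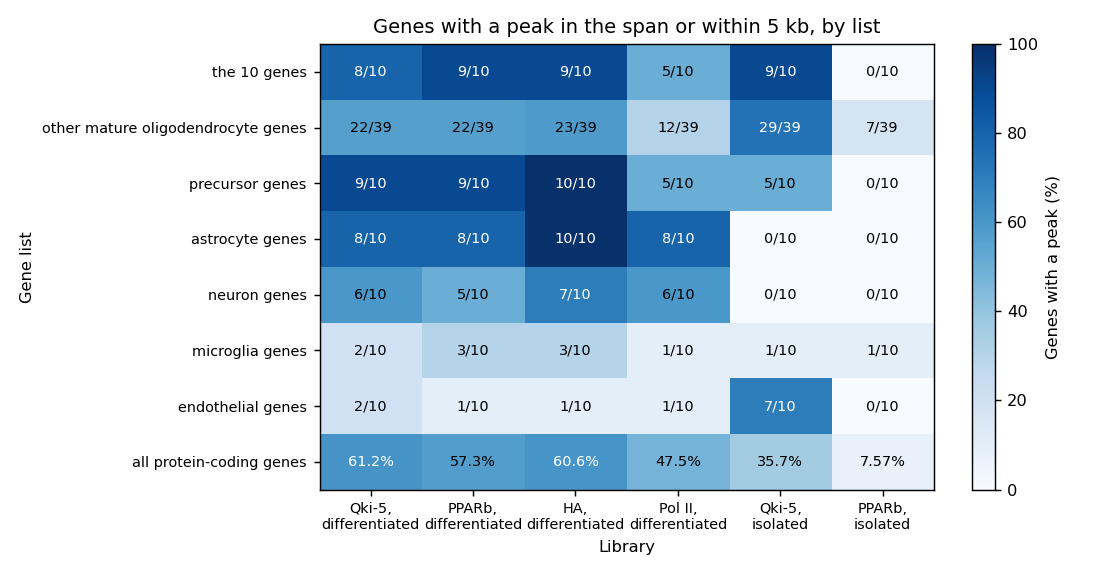
Number of genes with a peak in the span or within 5 kb, by gene list (rows) and library (columns), with the colour giving the percentage. The bottom row gives the percentage of all 21887 protein-coding genes. The first row reads 9 of 10 for Qki-5 of isolated cells, where astrocyte and neuron genes have none and endothelial genes 7 of 10.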

How the data were processed

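The submitters' processing notes name HOMER 4.10.1, SAMtools 1.8, Bowtie 1.2.2, Trim Galore 0.4.4 and bcl2fastq 2.19.1.403, and the build mm10, without an order. Per the file headers, the authors called peaks of 200 bp in each library with HOMER findPeaks at a false discovery rate of 0.001. Peaks also needed 4 times the input tags at a Poisson p-value of 0.0001, and 4 times the tags of the surrounding 10000 bp. The headers show duplicate-free tag directories and 1 input for each cell kind. What the word merge in the directory names of differentiated-cell Qki-5 and of the isolated-cell input refers to is not stated there. The deposited height, the normalized tag count, is a signal per 10000000 tags. The deposited fold over input is a ratio, and the findPeaks score a score of the authors' caller. Total tags were deposited as raw counts in 4 lists, and as scaled signal in 2 differentiated-cell lists, PPARb and Pol II. Heights served to order, filter and describe the peaks of the same list.

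Tag numbers were recovered as height times depth, and equalled the deposited counts in 100% of peaks of those 4 lists, within 0.5 tags. Peaks on chromosomes 1 to 19, X and Y were joined to the RefSeq genes of GRCm38.p6, the assembly behind mm10, with Python 3.11.15, NumPy 2.4.6, pandas 2.3.3 and SciPy 1.17.1. Peaks overlapped when they shared at least 1 bp, and a site joined overlapping peaks of any list. A percentile is the share of the list at or below a height. The joins were tested on simulated data. No test was run, since each group had 1 library. The 10 genes are named in any case, and other oligodendrocyte genes by the tallest isolated-cell Qki-5 peak (6 genes) and by the most lists (6 genes). 1 gene taken by this rule is not reported here. The genes, lists and alternatives were chosen with earlier results of these data known.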

Additional observations from a re-analysis of the deposited data

How the results depend on the processing

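Of 93 recomputed counts, 22 moved by more than 1.5 times. Those of isolated-cell PPARb, at 0, could not fall, and say nothing about stability. Taking the 5000 tallest peaks left 2 of the 10 genes with a peak for differentiated-cell Qki-5, 2 for PPARb, 2 for HA, 3 for Pol II and 5 for isolated-cell Qki-5. That cut kept most of the 8380 isolated-cell Qki-5 peaks, but a small part of the 30179 Qki-5 and 30042 HA peaks of differentiated cells. Counts of different lists under it are therefore not comparable. Cutting each list to the length of the shortest, an alternative chosen after seeing the data, left 0, 1, 0, 1 and 0 genes, beside the 0 of isolated-cell PPARb. At 8-fold over input, 5 genes kept an isolated-cell Qki-5 peak. Of the 5 such peaks left, 0 overlapped differentiated-cell Qki-5, and of 11 differentiated-cell Qki-5 peaks left 1 overlapped Pol II. Counting centres within 500 bp in place of overlap, 8 of all 15 differentiated-cell Qki-5 peaks met Pol II. Over spans alone, 2 of 7 isolated-cell Qki-5 peaks overlapped differentiated-cell Qki-5. Within 2 kb in place of 1 kb, 5 PPARb peaks lay by a boundary, and 3 genes had PPARb by an annotated start. By fold over input, the tallest peak passed the median of genes with a peak at 5 genes for PPARb, 4 for Pol II and 6 for isolated-cell Qki-5. By summed height it was 5 for HA and 2 for isolated-cell Qki-5. Fewer peaks entered the shorter and stricter lists; otherwise the cause was not tested. No paired analysis was possible because each group had 1 library.

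Depth limits single heights: 1 tag is worth between 0.402 and 0.792 height units, and the 11 isolated-cell Qki-5 peaks here rest on 13 to 23 tags.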

Other observations

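Height and fold over input ranked the isolated-cell Qki-5 peaks of these genes differently. By the findPeaks score, as by height, none of the 9 genes had a tallest peak above the median of genes with a peak. Hapln2 stood at the 11.8th percentile by height and at the 97.6th by fold over input, at 29.1-fold. Gpr37 stood at the 51.5th and the 95.4th, at 22.4-fold, and Gsn at percentiles 17.3 and 90.4, at 15.7-fold. Qdpr, at percentile 59.5 by height, was at 22.0 by fold (4.92-fold), Cnp at 6.10 (4.25-fold) and Tmem88b at 13.3 (4.47-fold). The peaks of Hapln2, Gpr37 and Gsn rested on 13, 20 and 14 tags, and those of Qdpr, Cnp and Tmem88b on 22, 19 and 16. The Qki-5 tag numbers of these high-fold and low-fold peaks thus overlapped. The fold is a ratio to input, and the input tags at these peaks are not given here, so the source of the difference was not tested. The 3 highest of the 11 by fold, at Hapln2, Gpr37 and Gsn, overlapped no differentiated-cell Qki-5 peak, and neither did the lowest, at Cnp. The median fold over input of the whole list was 6.71.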
